A study of Mus musculus with 3 samples.

Results

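The cells described here are microglia that carry transcripts of Cst7, Vcam1 or Il1b and of 3 further genes, Lox, Chst2 and Cd244. They were chosen by measured values: a cell needed at least 3 UMIs, and at least 5 per 10000 of its own UMIs, summed over these 6 genes, called the rule genes below. A UMI, or unique molecular identifier, marks 1 captured RNA molecule. A cell also needed more than 200 and at most 8000 genes, at most 10% of UMIs from mitochondrial genes, and fewer than 5 UMIs in each of 3 gene groups that mark border macrophages (Mrc1, Ms4a7, Cd163, Lyve1, Cbr2), monocytes (Plac8, Ly6c2, Chil3) and chemokine-rich microglia (Ccl3, Ccl4). Of 18340 barcodes in all, 17053 passed these limits and 254 were members, with 75 in the control, 64 in the hCD33M and 115 in the hCD33m library. The rule was set with results of these data in view, so the high level of the 6 rule genes in members describes the choice and is not a finding.

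The 3 libraries came from brains of mice aged 8 weeks, a wild type (control), an hCD33M and an hCD33m genotype. The transgenes encode the long (M) and the short (m) isoform of human CD33, a sialic acid-binding receptor of myeloid cells. According to the methods, each was inserted at the Rosa26 locus behind a loxP-flanked stop, came with GFP from the same transcript, and was switched on by Cre from Cx3cr1, a gene that microglia share with some other myeloid cells. Cells of a pair of mice per genotype were pooled, sorted as CD11b+CD45lowCx3cr1+ and run on the 10x Chromium 3′ platform, with inhibitors of transcription and translation in the isolation buffers, and the genotype itself was not checked here, since human CD33 transcripts are not among the genes counted. Each genotype is 1 library, so no test across mice was possible, and no p is given. The label of the hCD33m library says female, yet Xist, the RNA of the inactive X chromosome, had 3, 0 and 0 UMIs in the control, hCD33M and hCD33m libraries and the Y-linked Ddx3y was at 95.3, 105 and 94.9 CPM. The libraries held 32272657 to 40629705 UMIs, and library pairs shared 4 to 12 cell barcodes, with no barcode a member in both libraries of a pair.

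Microglia are the resident macrophages of the brain. In the healthy adult brain most of them express a homeostatic set of surface genes, such as P2ry12 and Tmem119, and near plaques or injured tissue some lower this set and raise a disease-associated set of lipid, lysosomal and phagocytic genes. Cst7 encodes cystatin F, an inhibitor of cathepsins and a known member of the disease-associated set. Vcam1 encodes a cell adhesion ligand of integrin α4β1, Il1b the inflammatory cytokine interleukin-1β, Lox a secreted enzyme that crosslinks collagen, Chst2 a Golgi enzyme that adds sulphate to N-acetylglucosamine, and Cd244 a receptor of the SLAM family that binds CD48.

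On the mm10 assembly, GENCODE places Cst7 at chr2:150570415-150578944, Il1b at chr2:129364570-129371139, Vcam1 at chr3:116109949-116129688 and Chst2 at chr9:95399292-95406722, all protein-coding. The 250 bases before the annotated RefSeq start (GRCm38.p6) are shown for Cst7, Il1b and Chst2, because each of these genes was high in cells that were chosen without it. Capitals mark matches, on either strand, to an ETS core (GGAAGT, the family of the macrophage factor PU.1) or a TATA box (TATAAA). The windows lie at chr2:150570165-150570414 on the plus strand, chr2:129371140-129371389 on the minus strand and chr9:95407271-95407520 on the minus strand.
Cst7: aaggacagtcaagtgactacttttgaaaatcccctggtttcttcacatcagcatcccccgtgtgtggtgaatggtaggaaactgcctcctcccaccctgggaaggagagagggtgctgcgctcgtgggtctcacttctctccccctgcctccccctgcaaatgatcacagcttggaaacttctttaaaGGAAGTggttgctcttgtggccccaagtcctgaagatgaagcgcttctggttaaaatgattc
Il1b: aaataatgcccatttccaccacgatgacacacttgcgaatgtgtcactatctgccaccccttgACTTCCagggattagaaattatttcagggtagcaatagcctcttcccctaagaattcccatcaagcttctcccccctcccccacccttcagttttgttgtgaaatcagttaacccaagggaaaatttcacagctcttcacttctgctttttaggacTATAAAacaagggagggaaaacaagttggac
Chst2: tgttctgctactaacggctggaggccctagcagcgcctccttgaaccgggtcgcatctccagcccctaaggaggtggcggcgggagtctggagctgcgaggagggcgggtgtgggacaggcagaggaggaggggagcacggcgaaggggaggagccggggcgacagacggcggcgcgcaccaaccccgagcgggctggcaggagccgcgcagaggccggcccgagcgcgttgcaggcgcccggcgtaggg
The ETS core was found 62 bases before the Cst7 start and 187 bases before that of Il1b, and 19.8% of 32536 such windows hold it. The TATA box lies 31 bases before the Il1b start and is in 12.3% of windows. Neither an AP-1 site (TGANTCA, in 6.73% of windows) nor an NF-kB site (in 1.40%) was found in these 3 windows, and Chst2 held none of the 4 motifs. A match describes letters and is no evidence of binding.

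Members made up 1.30% of passing cells in the control (95% Clopper-Pearson interval 1.02% to 1.63%), 1.14% in the hCD33M (0.880% to 1.46%) and 2.03% in the hCD33m library (1.68% to 2.43%), or 1.49% over all libraries. The interval of the hCD33m library lay above those of the others, but all intervals here cover counting error only and not the spread between mice. After every cell with at least 2000 UMIs was thinned at random to 2000 UMIs, shares were 0.675% (0.446% to 0.981%), 0.628% (0.403% to 0.933%) and 0.918% (0.662% to 1.24%) in the same order, and the intervals overlapped. Cells gated out for Ccl3 and Ccl4 numbered 49, 40 and 265, and 3, 2 and 13 of these met the score of the rule genes. Shallow cells were rare among members, of which 5 of 254 had under 2000 UMIs. Of all passing cells, 12395 of 17053 reached 2000 UMIs, by library 3998 of 5769, 3822 of 5607 and 4575 of 5677. Members were thus less often shallow than the cells behind the shares. Against passing cells of at least 2000 UMIs, members were not unusually deep. Their median was 5391 UMIs in the control, 5120.5 in the hCD33M and 5603 in the hCD33m library, against 5370.5, 5266 and 5311 in the other passing cells with at least 2000 UMIs (12146 cells, called other cells below). The median mitochondrial share of members was higher, at 3.15%, 2.79% and 2.72% against 1.49%, 1.23% and 1.26%, and its part in the results was not tested beyond the values given beside them.

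The label names Cst7, Vcam1 and Il1b, but members rarely carried all of them. Cst7 was found in 213 of 254 members and gave 59.1% of the rule gene UMIs, Vcam1 in 118, Chst2 in 77, Il1b in 51, Cd244 in 48 and Lox in 44. Only 19 members (7.48%) held Cst7, Vcam1 and Il1b together, whereas 246 held at least 1 of them. By number of rule genes, 66 members held 1 gene, 98 held 2, 73 held 3, 15 held 4, 2 held 5 and 0 held 6. In 45 members Cst7 was the only rule gene. The median member had 5 rule gene UMIs, 60 members had exactly 3, and 42 lay between 5 and 6 per 10000. Just outside the limits, 59 cells had 2 UMIs at 5 or more per 10000, and 196 had at least 3 UMIs but a lower share, the highest at 4.99 per 10000. Those 196 were RNA-rich cells with a median of 18384 UMIs. The label therefore holds for Cst7 in 83.9% of members, for Vcam1 in 46.5% and for Il1b in 20.1%, and Il1b positive members are a minority.

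To give each rule gene a value that its own counts did not set directly, cells were chosen again by the other 5 genes at the same limits. The 6 genes were put together with results of these data in view, so these values are a description and no independent support. In control, hCD33M and hCD33m order, Cst7 was then at 304, 404 and 393 CPM, against 18.5, 16.4 and 26.0 CPM in other cells. CPM is the UMIs of a gene summed over a class of cells per 1000000 UMIs of that class. The fold was 16.4 at the median of the 3 libraries (range 15.1 to 24.7). Vcam1 was at 85.0, 128 and 95.7 CPM against 8.77, 7.81 and 6.02 CPM, with a median fold of 15.9 (9.70 to 16.4). Lox was at 44.2, 19.3 and 32.3 CPM against 1.82, 0.835 and 1.14 CPM, with a median fold of 24.3 (23.1 to 28.3). The folds of Chst2 and Il1b were 12.1 (11.1 to 14.2) and 10.2 (9.39 to 11.8). All intervals of these 5 genes left out no difference in every library. Cd244 was weaker, with a median fold of 3.69 (2.27 to 5.61), and its interval in the hCD33M library ran from -0.71 to 2.57 on the log2 scale. The counts behind these values are small: 4 to 17 UMIs for Cd244, 7 to 24 for Lox and 10 to 21 for Il1b. Without Cst7 the rule chose 28, 21 and 37 cells, of which 10, 11 and 24 had a Cst7 UMI.

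**Figure D1:**
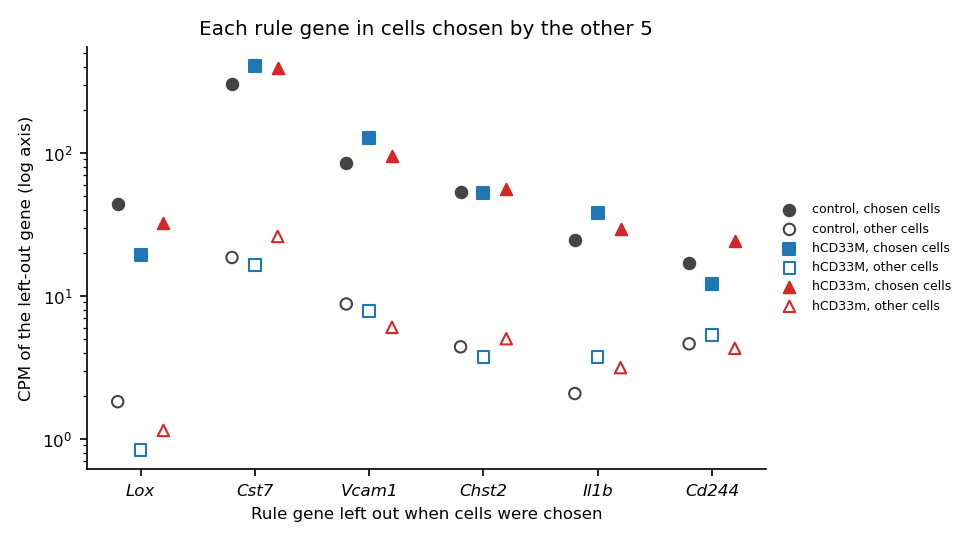
CPM of each rule gene (vertical log axis) in cells chosen by the other 5 rule genes (filled) and in other cells (open), by library. Filled points lie above open points for all 6 genes, and by median fold over the libraries the gap is smallest at Cd244 (3.69) and largest at Lox (24.3).

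Members kept a microglial profile. The 9 microglia markers summed to 23606, 20596 and 21169 CPM in members of the control, hCD33M and hCD33m libraries, against 28498, 28073 and 26605 CPM in other cells, and none of the 9 was at 0. The 5 most microglia-restricted genes (P2ry12, Tmem119, Sall1, Fcrls, Siglech) summed to 7054, 6159 and 6449 CPM against 9729, 9939 and 9388 CPM, and 3 of 254 members lacked all 5. Of 9 NK and T cell markers, 1, 2 and 3 were among the genes counted in these libraries, and they gave 0, 1 and 3 UMIs in members. Of 4 pericyte markers, 2, 2 and 1 were counted and gave 0 UMIs. Of 5 fibroblast markers 0 were counted in any library, so they could not show up. The 6 border macrophage markers summed to 55.7, 98.6 and 63.8 CPM in members against 9.82, 11.7 and 7.92 CPM in other cells, most of it Mrc1, and 3, 4 and 5 of the 6 were at 0 in members. At least 2 UMIs of the border macrophage genes were found in 28 of 254 members and in 142 of 12146 other cells. The 6 monocyte markers summed to 9.29, 13.3 and 44.3 CPM in members and 14.5, 11.7 and 20.7 CPM in other cells, with the clearest gap in the hCD33m library. B cell markers (144 to 223 CPM in members against 290 to 356 CPM in other cells) and dendritic cell markers (41.7 to 53.3 CPM, highest in other cells at 63.9 CPM) were lower in members of every library. Neutrophil markers (266 to 309 against 222 to 274 CPM) and neuron markers (4.64 to 5.33 against 2.05 to 2.62 CPM, from 2 to 4 UMIs in members) were higher in every library. Of the 5 neutrophil markers, 3, 4 and 4 were at 0 in members. Only Csf3r of them reached 20 CPM in members or other cells of every library, with a median log2 ratio of 0.17. Endothelial (32.0 to 37.8 against 36.2 to 40.3), astrocyte (213 to 267 against 193 to 233) and oligodendrocyte markers (50.6 to 75.6 against 63.4 to 65.3 CPM) had no common direction. By the same minimum, only Ighm and Cd79b of the B cell markers and Slc1a3 of the astrocyte markers were measured. Cdkn1a, the listed marker that the rule did not use, was at 90.6, 82.6 and 122 CPM in members and 22.4, 27.8 and 28.1 CPM in other cells. It encodes p21, an inhibitor of cyclin-dependent kinases, and its median fold was 4.04.

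Against other cells of the same library, 106 of 6568 measured genes were at least 1.5-fold higher in members in each of the 3 libraries with intervals that left out no difference, which is 1.61% of genes, and 86 were lower, which is 1.31%. Genes that pass this rule of size are said to be called. Under TMM scaling, another way to set the library totals, the counts were 119 higher and 54 lower. Measured genes had at least 20 CPM in members or other cells of every library, the rule genes left out, and their median log2 ratio was -0.13, so list medians below are read against that value. A gene low in other cells can enter through its level in members alone and is then bound to be higher. When at least 20 CPM was asked of other cells in every library, a choice made after seeing the data, 72 of 6396 genes were higher (1.13%) and 86 lower (1.34%). Counts per list are therefore given under both minimums where the called genes differed. The other lists are given under the first minimum, and their called genes were the same under both. When other cells were weighted to the members' mitochondrial shares, a choice made after seeing the data, 72 genes were higher and 48 lower, of which 70 and 43 were among those above.

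The leading higher genes are described next, with several receptors among them. Mrc1, the mannose receptor, was at 51.1, 90.6 and 63.8 CPM in members of the control, hCD33M and hCD33m libraries against 8.33, 10.5 and 4.96 CPM in other cells, a median fold of 8.64. The rule itself caps the Mrc1 count of a cell, and with cells of at least 2 border macrophage UMIs left out Mrc1 was no longer called. Gpr162, an orphan G protein-coupled receptor, was at 37.2, 48.0 and 31.3 CPM against 5.53, 5.54 and 4.01 CPM. Hcar2, the receptor for niacin and β-hydroxybutyrate, was at 72.0, 58.6 and 40.4 CPM against 9.53, 5.85 and 7.25 CPM. Axl, a receptor tyrosine kinase that takes up apoptotic cells through Gas6, was at 44.1, 56.0 and 43.0 CPM against 7.16, 5.54 and 6.36 CPM, a median fold of 6.76. These 4 genes were below 20 CPM in other cells, so they passed the minimum only through members, where they are high, and their separation is given as a description. Between 14.7% and 32.8% of members had a UMI of them. Pdcd1, the inhibitory receptor PD-1, followed with 32.5, 21.3 and 23.5 CPM against 5.06, 2.26 and 6.42 CPM. Its values came from 8 to 18 UMIs a library, and it too passed the minimum only through members.

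Lyz2, which encodes lysozyme, was the most abundant of the leading genes beside Apoe and the most even over cells. It was at 1804, 2670 and 2664 CPM against 410, 360 and 376 CPM, and 96.0% to 98.3% of members had a UMI, against 66.6% to 70.0% of other cells at similar depth. No member gave more than 8.28% of a library's Lyz2 UMIs. Reads of Lyz2 can be shared with its near-identical neighbour Lyz1, so the value is uncertain to that extent. Apoe, the main lipid carrier of the brain, behaved differently. It was at 1456, 4224 and 2615 CPM in members against 652, 394 and 486 CPM, yet 46.7%, 35.9% and 40.9% of members had an Apoe UMI against 44.6%, 43.0% and 43.3% of other cells. A single member gave 21.1% of the Apoe UMIs in the control, 26.3% in the hCD33M and 43.1% in the hCD33m library. The mean level of Apoe was thus set by a minority of members, and with other cells weighted to the members' mitochondrial shares its log2 ratio in the control library was 0.07 and Apoe was no longer called.

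Further leading genes were Sfi1, a centrosomal protein, with a median log2 ratio of 2.19, Slc39a4, a zinc importer (2.12), Baiap2, a regulator of actin protrusions (2.04), Fxyd5, a sodium pump regulator (2.02), and the noncoding or unnamed genes AC139671.1 (2.32) and Gm43821 (2.14). Sfi1 was at 174, 128 and 117 CPM against 33.4, 31.3 and 25.6 CPM and was found in 45.3% to 53.3% of members. The other genes of this group were below 20 CPM in other cells of every library. They passed the minimum only through members, where they are high, so their ratios are given as a description. Fxyd5 stood at 755 CPM in the 13 members with neither Cst7 nor Vcam1 and at 20.8 to 47.2 CPM in the others. These 13 cells also held Cybb, the NADPH oxidase subunit, at 1355 CPM and Lyz2 at 8245 CPM, with Tmem119 at 677 CPM. Without them, Fxyd5, Gm43821 and Pdcd1 of the leading genes were no longer called, and the totals were 102 higher and 85 lower genes.

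**Figure D2:**
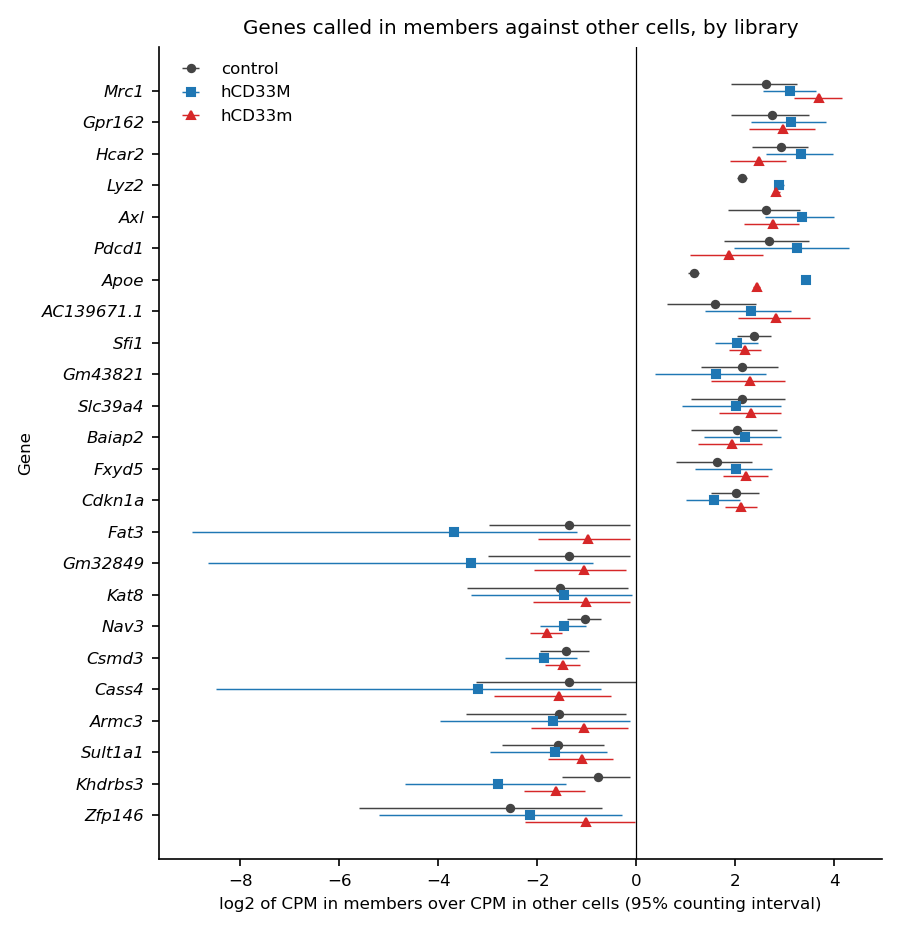
log2 of CPM in members over CPM in other cells (horizontal axis) for the leading higher genes described here and the 10 leading lower genes, by library, with 95% counting intervals as bars. Apoe spreads from 1.16 to 3.42 over the libraries, while Sfi1 stays between 2.03 and 2.38, and the lower genes have wide intervals. Of the higher genes, only Lyz2, Apoe, Sfi1 and Cdkn1a had at least 20 CPM in other cells, and the rest passed the minimum through members alone.

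Lower genes changed less and rested on fewer UMIs. The 10 with the lowest ratios were Zfp146, a zinc finger protein, Khdrbs3, an RNA-binding protein, Sult1a1, a sulfotransferase, Armc3, Cass4, a scaffold of the Cas family, Csmd3, Nav3, Kat8, the histone H4 lysine acetyltransferase MOF, Gm32849 and Fat3, an atypical cadherin, with median log2 ratios from -2.15 to -1.35. Zfp146 had 2, 2 and 8 UMIs in members and was not called under TMM scaling. Better measured were Nav3, at 172, 107 and 102 CPM in members against 354, 294 and 358 CPM in other cells, and Csmd3, at 83.6, 45.3 and 89.9 CPM against 225, 166 and 252 CPM. Both genes were picked from those called lower, so their lower level in members of every library follows from that choice.

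Of the disease-associated microglia list, 13 of 25 measured genes (of 35 listed) were called higher and 0 lower, with a median log2 ratio of 0.64, against 1.61% of all measured genes. With the minimum in other cells it was 9 of 21, with a median of 0.56, against 1.13%. These 9 were Apoe, Lyz2, Cd52, Cd63, Ctsz, Timp2, B2m, Fth1 and Ctsl, and Axl, Itgax, Csf1 and Lpl passed through members alone. Cst7, another member of this set, is a rule gene and was not counted. Cd63, a tetraspanin of late endosomes, was at 1131, 1109 and 1291 CPM in members against 420, 405 and 444 CPM in other cells. Cd52, a surface glycopeptide, was at 824, 674 and 562 CPM against 293, 263 and 210 CPM. Csf1, the growth factor of microglia, was at 41.8, 45.3 and 52.1 CPM against 17.2, 13.3 and 11.3 CPM. Fth1, the ferritin heavy chain, was at 3648, 3475 and 3450 CPM against 2288, 2074 and 2057 CPM. Itgax, the integrin CD11c, had a high median fold (9.50), but 66.7% of its control UMIs came from 1 member, and without the member highest for it Itgax was not called. Spp1, chosen after its values were seen, was at 90.6 CPM in control members, 87.2% of it from 1 cell, and at no more than 13.3 CPM in the other libraries. Gpnmb was at 0 in members of all libraries, and the authors had dropped from each file all genes seen in under 3 cells. With other cells weighted to the members' mitochondrial shares the list median was 0.44, and Apoe, B2m and Ctsl were not called.

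Homeostatic genes moved the other way. Of 36 measured genes, 5 were called lower (P2ry12, Crybb1, Slc2a5, Tgfb1 and Itgam) and 1 higher (Gpr84), the median log2 ratio was -0.50, and 31 of the 36 were below other cells in all libraries. Of all measured genes 1.31% were lower, and all 36 passed the minimum in other cells. Itgam was not called under depth weighting, TMM scaling or the mitochondrial limit of 5%, nor Tgfb1 under mitochondrial weighting or that limit. P2ry12, the ADP receptor of microglial processes, stood at 2046, 1908 and 1970 CPM against 3490, 3588 and 3466 CPM. Crybb1, a crystallin, was at 223, 144 and 172 CPM against 445, 467 and 385 CPM. Mef2a, a transcription factor, had a median of -0.86 and did not pass in all libraries. The fall was unequal: Tmem119 and Cx3cr1, singled out after their values were seen, had medians of -0.29 and -0.55 and were not called. Gpr84, a receptor for medium-chain fatty acids, was at 453, 251 and 322 CPM against 167, 143 and 116 CPM.

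Among 12 measured cytokines and chemokines, 5 were called higher (1.61% of all genes) and 1, Tgfb1, lower, with a median of 0.69. Tnf, Csf1 and Tnfsf8 passed the minimum through members alone. Over the 7 genes with at least 20 CPM in other cells, 2 were higher and 1 lower, and the median changed sign to -0.06. Ccl12, a monocyte attractant, was at 639, 259 and 360 CPM against 158, 119 and 116 CPM. Cxcl16, the ligand of CXCR6, was at 193, 133 and 201 CPM against 59.9, 67.7 and 61.8 CPM. Tnf came from 8 to 23 UMIs a library and was not called without the member highest for it. In the IL-1 pathway, apart from Il1b itself, 1 of 11 measured genes was called, beside 1.61% of all genes: Casp4, the caspase of the noncanonical inflammasome, at 44.1, 48.0 and 39.1 CPM against 25.3, 23.6 and 22.1 CPM. Casp4 was not called without the member highest for it. The inflammasome sensor Nlrp3 (median -1.19), Il18 (-0.56) and the adaptor Pycard (-0.56) lay below other cells without being called, and Il1a differed little (-0.12). Of 17 measured NF-kB subunits, inhibitors and targets only Cd83 was called, with a median log2 ratio of 0.95, while the inhibitor Nfkbia had 0.92 and was not called in all libraries. Among 13 Toll-like receptors and co-receptors, 1 (Tlr1) was called, and not under 4 of the alternatives.

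Among the SLAM family, to which Cd244 belongs, 4 of 6 measured genes were called higher: Slamf8, Slamf9, Ly9 and Cd48, the ligand of Cd244, beside 1.61% of all genes. With the minimum in other cells it was 3 of 5, without Slamf8, beside 1.13%. Cd48 was at 244, 283 and 223 CPM against 147, 144 and 136 CPM, and Ly9 at 83.6, 152 and 97.7 CPM against 31.2, 28.4 and 36.5 CPM. Antigen presentation genes gave 3 of 14 higher, the MHC class I genes H2-K1, H2-D1 and B2m, beside 1.61% of all genes. H2-K1 was at 998, 903 and 885 CPM against 535, 536 and 407 CPM, and class I genes can share reads among themselves. The class II gene H2-Ab1 was not raised, at 32.5, 8.00 and 9.12 CPM against 38.7, 24.8 and 53.7 CPM. B2m, H2-K1, H2-D1 and Cd48 were not called once other cells were weighted to the members' mitochondrial shares, with median log2 ratios of 0.70, 0.63, 0.59 and 0.54.

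Of 13 measured cathepsins and cystatins, the inhibitors of cathepsins, 2 were called, both higher, beside 1.61% of all measured genes. Ctsz was at 3487, 3494 and 3257 CPM against 1826, 1698 and 1611 CPM, and Ctsl at 2134, 2012 and 1898 CPM against 1366, 1212 and 1215 CPM. Ctsl was not called under mitochondrial weighting or at the mitochondrial limit of 5%. Ctss had a median log2 ratio of 0.62 and Ctsd one of -0.21. Of 13 lipid handling genes Apoe, Lpl and Soat1 were called higher, and of 12 interferon-stimulated genes Ifitm3, Ifi204 and Bst2. Lpl and Ifi204 passed the minimum through members alone. With the minimum in other cells it was 2 of 11 in each list, beside 1.13% of all genes. The interferon list median was then -0.15, against 0.07 under the first minimum. Lpl and Ifitm3 were uneven, with 29.6% to 47.8% and 34.4% to 40.0% of UMIs from 1 member, and Ifitm3 was not called without it. The pathways of the remaining rule genes follow, beside 1.61% of all measured genes called higher and 1.31% called lower. Of 15 sulfotransferases and sialyltransferases, Chst1 and St8sia6 were called higher, St8sia6 with under 20 CPM in other cells. With the minimum in other cells it was 1 of 14. Of 10 lysyl oxidase, collagen and matrix genes, Timp2, an inhibitor of metalloproteinases, was called at 1008, 1098 and 1205 CPM against 591, 552 and 582 CPM. Of 14 adhesion molecules and integrins, Itgax was called higher and Itgam lower. With the minimum in other cells 0 of 13 were higher and 1 lower. Itga4, whose product binds Vcam1, had 0 CPM in control members and 10.7 and 20.8 CPM in the hCD33M and hCD33m members.

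Of 11 measured p53 target and growth arrest genes besides it, 0 were called higher and only Sesn1 was called lower, and the median log2 ratio was -0.21. Trp53inp1 and Ccng1, named after their values were seen, were above other cells in all libraries, at 0.39 to 1.04 and 0.36 to 0.72, without being called. Of 8 measured cell division genes 0 were called, with Ccnd1 at a median log2 ratio of -1.17. Of 17 immediate early genes 2 were called lower, Fosb and Zfp36, beside 1.31% of all genes. Fosb was not called under TMM scaling, with cells of at least 2 border macrophage UMIs left out, without the 13 members lacking Cst7 and Vcam1, or at the mitochondrial limit of 5%. Heat shock genes gave 1 higher (Hmox1) of 10, glycolysis genes 0 of 17, and TGF-beta signalling genes 1 lower (Tgfb1) of 11.

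**Figure D3:**
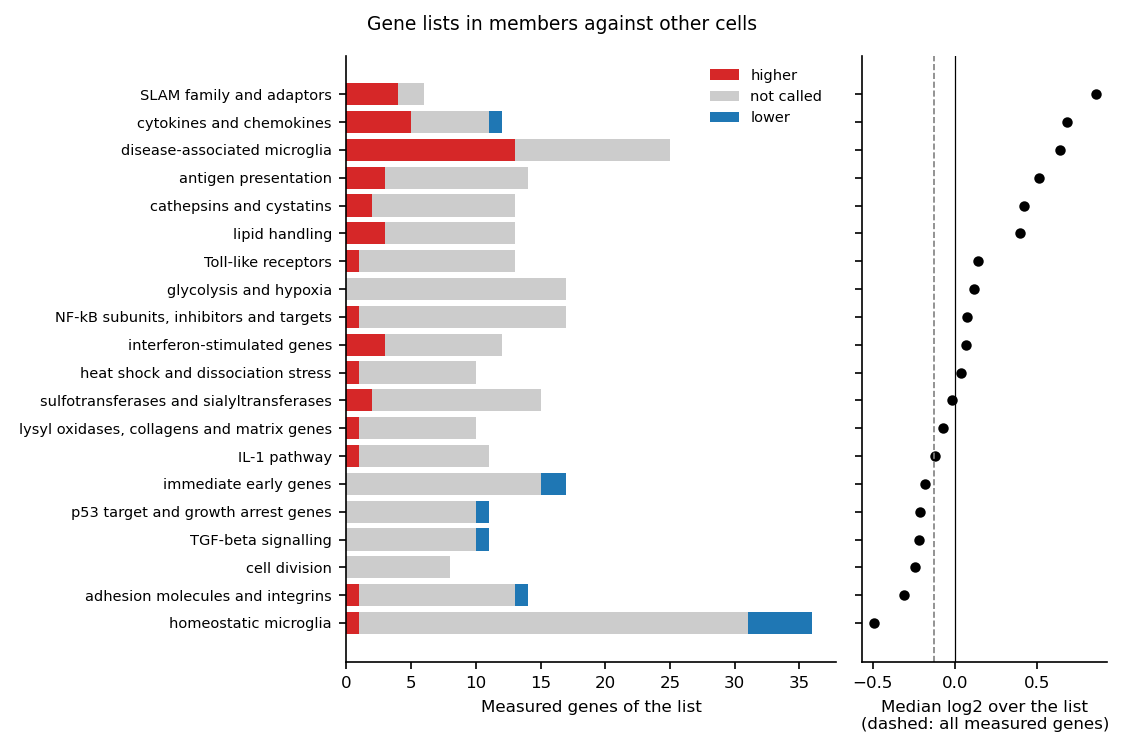
Left, number of measured genes per list that were called higher (red), called lower (blue) or not called (grey) in members against other cells; right, the median log2 ratio of each list, with the median of all measured genes as a dashed line. The disease-associated list holds the most higher calls (13) and the homeostatic list the most lower calls (5).

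Levels were then followed over 5 classes of cells set by the rule genes: no UMI of them (10542 cells), 1 or 2 UMIs (1408), at least 3 UMIs below 5 per 10000 (196), members from 5 to under 10 per 10000 (142) and members at 10 or more (112). Lyz2 was at 319, 539, 835, 1944 and 3345 CPM over these classes, pooled over libraries, and it increased at each step in all 3 libraries. Cd63 was at 400, 491, 563, 1045 and 1502 CPM and Ctsz at 1664, 1814, 2024, 3003 and 4079 CPM. The ADP receptor P2ry12 stood at 3581, 3320, 3098, 2201 and 1552 CPM and was lower at each step in all libraries. Tmem119 was at 1621, 1598, 1586, 1355 and 1280 CPM, a smaller decline that did not hold at each step in the control and hCD33M libraries. In pooled values, cells below the threshold lay between cells without these UMIs and members for Lyz2, Cd63 and P2ry12. The classes were cut on the same score that chose the members, so this order is a description and was not tested. Depth also differed, with a median of 18384 UMIs in the class of at least 3 UMIs below 5 per 10000. Apoe had no common order: in the hCD33M library it was at 6063 CPM in the lower and 1373 CPM in the upper member class, whereas the hCD33m library had 1789 and 4150 CPM.

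**Figure D4:**
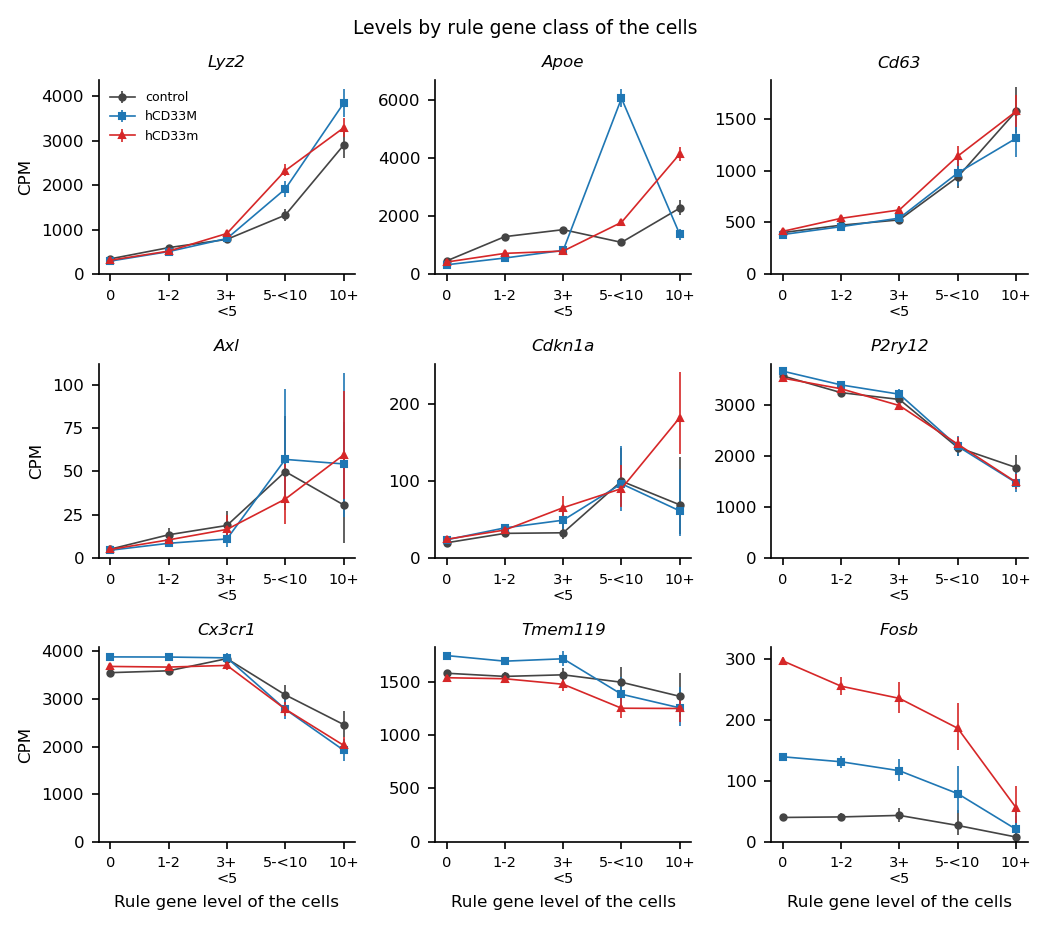
CPM of 9 genes (vertical axes from 0) in 5 classes of cells by rule gene level (horizontal axis: 0 UMIs, 1 or 2 UMIs, at least 3 UMIs under 5 per 10000, members at 5 to under 10, and members at 10 or more per 10000), by library with 95% Poisson intervals. Lyz2 and Cd63 climb and P2ry12 declines in all 3 libraries, while Apoe follows a different order in each.

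Members also differed among themselves. The 51 members with Il1b had Apoe at 637 CPM, against 3256 CPM in the 203 without, and Axl at 14.5 against 55.4 CPM, and both differences had the same sign in each library. Fosb (174 against 63.5 CPM) and Fos (275 against 169 CPM) were higher in the pooled Il1b members but not in the control library, while P2ry12 (1918 against 1992 CPM) and Cst7 (533 against 599 CPM) were close. Clec4a1 (57.9 against 4.88 CPM), Marcksl1 (84.0 against 10.6 CPM) and Ifitm2 (89.8 against 11.4 CPM) were the most enriched in Il1b members among genes of at least 50 CPM with 1 sign in all libraries. The 123 members with Cst7 but no Vcam1, the 28 with Vcam1 but no Cst7 and the 90 with both had P2ry12 at 2043, 1950 and 1952 CPM and Lyz2 at 2248, 1356 and 2437 CPM. These subsets were cut after seeing the data, pool the libraries and rest on few cells, and the presence of 1 UMI also depends on the depth of a cell, with medians of 6123 UMIs with and 5236 without Il1b.

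Members were set beside 2 other microglial classes. In 343 chemokine-rich cells of at least 2000 UMIs, gated out by Ccl3 and Ccl4, Cst7 was at 39.4 CPM, Il1b at 15.9, Lyz2 at 507 and Cd63 at 652 CPM, against 585, 62.3, 2430 and 1204 CPM in members and 12.4, 2.38, 381 and 424 CPM in other cells. In 238 cells chosen by Lpl and Emp3 that were not members, Apoe was at 2864 CPM and Axl at 47.2 CPM, near the member values of 2681 and 46.4 CPM, while Cst7 was at 13.2 CPM and the class II gene H2-Ab1 at 615 CPM, against 15.3 CPM in members. Of 255 cells chosen by Lpl and Emp3, 17 were also members, which is 6.67% of those cells and 6.69% of members. Cst7 and Il1b are rule genes, so their levels in members were set by the choice of cells. Members were left out of the 238 cells, so the lower Cst7 there follows from that choice as well. Cells of both classes were selected on measured genes, and the differences were not tested.

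Between libraries, members were compared with each other at a minimum of 50 CPM. In hCD33m against control members 164 of 3815 genes were called higher (4.3%) and 137 lower (3.59%), in hCD33M against control 130 of 3839 higher (3.39%) and 155 lower (4.04%), and in hCD33m against hCD33M 158 of 3806 higher (4.15%) and 104 lower (2.73%). Among the same genes, other cells gave fewer calls: 42 higher and 9 lower, 26 and 14, and 23 and 6 in the same order. Of the member calls, 27 higher and 5 lower, 15 and 7, and 16 and 2 genes were also called in other cells. The other member calls were not made in other cells. Whether members and other cells differed in these contrasts was not tested, and the comparisons share libraries.

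The genes highest in hCD33m over control members were mostly immediate early genes, which respond to stimuli within minutes. Klf4 was at 78.2 CPM in hCD33m and 6.97 CPM in control members, a log2 ratio of 3.49, against 3.48 in other cells. Dusp1, Fos, Fosb and Ier2 followed with log2 ratios of 3.03, 2.93, 2.75 and 2.61 in members. In other cells these were 2.72, 3.20, 2.84 and 2.07, and Klf2 had 2.59 in members. Klf4 and these genes were all below 50 CPM in control members and passed the minimum through the hCD33m library alone. Of 19 measured immediate early genes 15 were called higher in hCD33m than control members with a median log2 ratio of 1.18, beside a median of 1.19 in other cells. For hCD33M against control it was 10 of 17 with medians of 0.85 and 0.72, and for hCD33m against hCD33M 6 of 18 with medians of 0.38 and 0.49. Fos was at 39.5, 147 and 301 CPM in members and 56.6, 248 and 519 CPM in other cells of the control, hCD33M and hCD33m libraries. The order of libraries was the same in members and other cells, and members were lower for Fos in each. Lgals3, galectin-3, was at 71.7 CPM in hCD33m members against 6.97 CPM in the control, found in 11 hCD33m, 2 control and 2 hCD33M members, and Ccl4 at 52.1 against 6.97 CPM in the control.

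**Figure D5:**
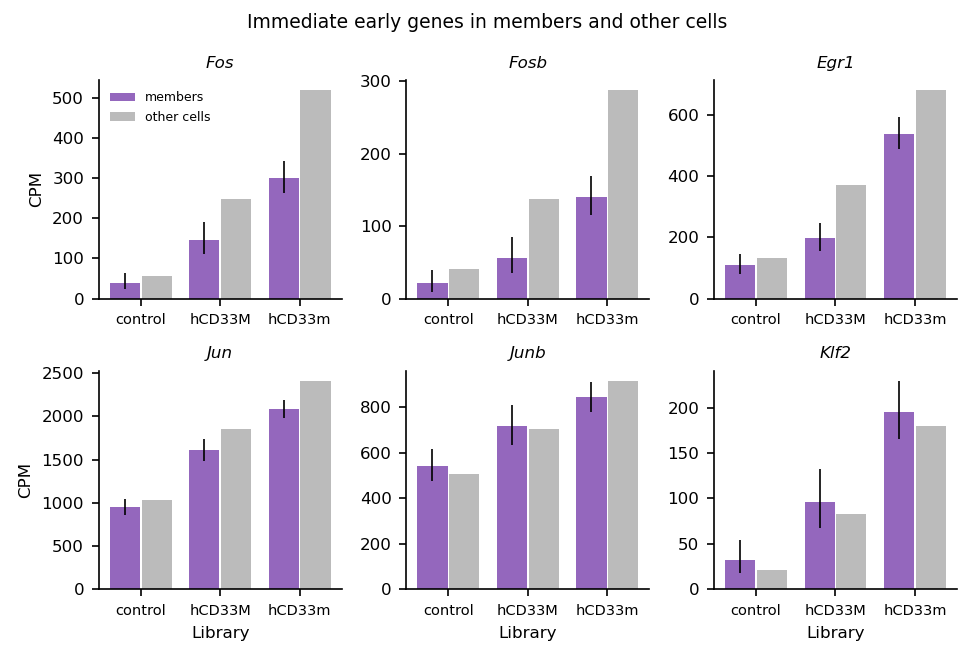
CPM of 6 immediate early genes (vertical axes from 0) in members (purple, with 95% Poisson intervals) and other cells (grey) of each library. Levels follow the order control, hCD33M, hCD33m in both classes, and Fos and Fosb are lower in members than in other cells of every library.

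The lowest genes in hCD33m over control members were Spp1, Gm47283, Cxcl9, Mid1, Zfp422, Gabpb1, Slc16a7 and 4732440D04Rik, with log2 ratios from -2.80 to -1.51. Spp1 rested on 1 control cell with 87.2% of its UMIs, and Cxcl9 was found in 2 control cells and 1 hCD33m cell, whereas Gm47283 was also lower in other cells (log2 ratio -2.61 in members and -3.11 in other cells). In hCD33M over control members the highest were Ifitm2, Gm45768, Mrpl55, Dusp1, Gm26520, Cand1, Zfp846 and Fos (4.59 to 1.89), and the lowest Spp1, Bola1, Endod1, Cables1, Gabpb1, Tomm40, Trove2 and Znhit1 (-2.76 to -1.89). Ifitm2 came from 3 cells in the hCD33M and 1 in the control library. In hCD33m over hCD33M members Lgals3, Inpp5k, Pom121, Exoc5, Tomm70a, Ercc5, Znhit1 and Mlph were highest (2.16 to 1.53), while Gm47283, Gm45768, Slc35e1, Ginm1, Pcsk7, Tmc6 and Cyp20a1 were low (-2.47 to -1.32). Hbb-bs, a haemoglobin gene, was listed at 11122 CPM in hCD33M members and at 0 in hCD33m members, all of it from 1 cell with 4173 UMIs. With that cell left out, 136 genes were called higher and 113 lower in hCD33m against hCD33M.

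The rule genes themselves were set by the choice of cells and are given as levels only. In members of the control, hCD33M and hCD33m libraries Cst7 was at 527, 541 and 638 CPM, Vcam1 at 223, 189 and 149 CPM, Il1b at 44.1, 88.0 and 59.9 CPM, Chst2 at 92.9, 77.3 and 82.1 CPM, Lox at 48.8, 24.0 and 39.1 CPM and Cd244 at 27.9, 50.6 and 46.9 CPM. Lyz2 was not called between any libraries within members, with log2 ratios of 0.56 (0.44 to 0.68) in hCD33m and 0.57 (0.43 to 0.70) in hCD33M over control, and neither was P2ry12, at -0.05 (-0.18 to 0.07) and -0.10 (-0.24 to 0.04). Cdkn1a had 0.44 (-0.12 to 1.01) and -0.13 (-0.86 to 0.59). Apoe was called higher in hCD33m (0.84) and hCD33M (1.54) over control members, with the uneven spread over cells given above. In other cells its ratios had the opposite sign, at -0.42 and -0.73, and Apoe was called lower there in hCD33M over control.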

How the data were processed

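Single-cell RNA was measured in 1 library per genotype. The authors aligned reads to mm10 with Cell Ranger and deposited raw UMI counts per gene and cell, after removal of cells with at most 200 genes and genes seen in under 3 cells of that library. UMI counts were summed over cells per class and library and scaled to counts per 1000000 (CPM), using pandas 2.3.3, scipy 1.17.1 and numpy 2.4.6 under Python 3.11.15. Intervals were exact at 95% (Poisson for levels, conditional binomial for ratios, Clopper-Pearson for shares). No test across mice was possible. Scripts were tested on simulated data.

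Named genes were the 6 rule genes and Cdkn1a, the 15 highest and 10 lowest called genes by median log2 ratio with a UMI in at least 10% of members (of other cells for lower genes) in every library, up to 4 genes per list by absolute median ratio, and the 8 highest and 8 lowest called genes between libraries. Any other gene, further called list members included, was named after its values were seen. Genes that the rule selects but the text leaves out are not reported here. Members and lists were chosen with earlier results of these data known. Doublets were limited by the maximum of 8000 genes only. Alternatives were other thresholds, fold and CPM minimums, thinning, TMM scaling (edgeR 4.0.16, R 4.3.3), equal cell weights, depth weighting and leaving out a gene or library. Those on mitochondrial share, a CPM minimum in other cells, border macrophage UMIs, haemoglobin, single cells and cells without Cst7 or Vcam1 were added after seeing the data.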

Additional observations from a re-analysis of the deposited data

Results flagged for a closer look

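For 7 genes, members lay at least 1.5-fold above other cells in 1 library and at least 1.5-fold below them in another, with intervals that left out no difference. These contrasts between libraries were not tested, and the genes had 3 to 64 UMIs in members of a library. In log2 of members over other cells, 1700021F05Rik was at 0.87 in the control and -1.80 in the hCD33M library. Znhit1 was at 0.65 in the control and -1.44 in the hCD33M library. Gm26520 was at 0.90 in the hCD33M and -1.12 in the control library. Aprt, the adenine salvage enzyme, was at 0.59 in the hCD33m and -0.85 in the hCD33M library. Gabpb1, a subunit of an ETS family factor, was at 0.87 in the control and -0.84 in the hCD33m library. Rnf41, a ubiquitin ligase, was at 0.79 in the control and -0.83 in the hCD33m library. Pcsk7, a proprotein convertase, was at 0.83 in the hCD33M and -0.74 in the hCD33m library.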

How the results depend on the processing

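Shares of members (control, hCD33M, hCD33m and all) were 0.537%, 0.571%, 0.863% and 0.657% at 10 per 10000 UMIs, 0.693%, 0.642%, 1.37% and 0.903% at 5 UMIs, 0.675%, 0.628%, 0.918% and 0.750% after thinning, and 0.485%, 0.375%, 0.652% and 0.504% without Cst7. Without Vcam1 they were 0.919%, 0.838% and 1.16% in the control, the hCD33M library and all. The hCD33m library had the highest share each time. Against 106 higher and 86 lower genes, a fold of 2 gave 52 and 13, a minimum of 50 CPM 70 higher, TMM scaling 54 lower, equal cell weights 130 lower, a mitochondrial limit of 5% 57 lower, mitochondrial weighting 48 lower, and leaving out for each gene its highest member 174 lower. Without control, hCD33M or hCD33m, which asks for fewer libraries, 157, 143 and 120 genes were higher and 214, 144 and 134 lower. Between libraries (hCD33m over control, hCD33M over control, hCD33m over hCD33M), a fold of 2 gave 57, 58 and 74 higher and 36, 70 and 31 lower, and a minimum of 100 CPM 72, 59 and 64 higher and 49, 88 and 41 lower. With equal cell weights 205 were higher in hCD33M over control and 162 lower in hCD33m over hCD33M. Elsewhere the cause was not tested. Of 64 called genes that the text could name, 48 kept their call under mitochondrial weighting and 48 under the limit of 5%. All 108 kept their direction under the 8 alternatives for levels, while some list medians near 0 changed sign: IL-1 pathway and Toll-like receptors under mitochondrial weighting, sulfotransferases under TMM scaling, interferon-stimulated genes under equal weights and without the 13 members, and NF-kB, heat shock, interferon, Toll-like receptors and glycolysis with the highest members left out. Asking for 20 CPM in other cells gave 72 higher and 86 lower genes. No paired analysis was possible because each genotype has 1 library, and depth limits genes below about 20 CPM in members.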
